A study of Pinus pinaster with 66 samples.

Results

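The needles that a maritime pine (Pinus pinaster) forms in spring meet their first cold season in autumn. The change described here is that of the current-year needles between September and November 2012: the array value in November needles of Whorl 0, the whorl formed in 2012, minus the value in September needles of the same whorl, with 3 arrays in each month. A spot, which is 1 cDNA printed on the array, was a member where at least 2 of the 3 arrays of each month gave a value for it. This held for 7189 of the 8208 spots of the array, and 6659 of them had a value on all 6 arrays. Needles of adult trees growing in the field were taken from the same 6 trees at each harvest, always from the south side of the crown, and the RNA of the trees was pooled 2 by 2, so each array is 1 pool of 2 trees. No tree was treated, and the groups differ in month and in needle age alone as far as the labels say. The same step was measured in older needles of the same trees, namely Whorl 1 (formed in 2011), Whorl 2 (2010) and Whorl 3 (2009), with 8 arrays in November and 9 in September. The needle RNA (Cy3) was set against a pool of January needle RNA (Cy5), and a value is the normalised log ratio of the 2, taken as log2 (the base is not stated). Positive values were taken to mean a higher level than in January, the likely direction given the dyes and the signs the study uses. January is what the labels' source and harvest date and the study's methods give for the reference, but on most samples, those of both months here among them, a further month label of the Cy5 channel names some other month. It was taken as 1 January pool for all arrays, and the step is free of the reference only if that holds. January needles of Whorls 1 to 3 were not at 0 at every spot, with means of -1.36 for Q8C5, -0.79 for Q11J18 and 0.79 for Q5C1. All values are levels per amount of labelled RNA in whole needles, so fewer cells of a type and less RNA per cell cannot be told apart.

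Pine needles stay on the tree for several years, and needles of different ages pass through the same winter side by side. In autumn, shorter days and lower temperatures start cold hardening, during which conifers stop growing, change the lipids of their membranes, build up protective proteins and solutes and lower the use of light for carbon gain. Young needles are also where flavonoids are made in quantity. These are phenolic pigments and tannin precursors that screen light and deter herbivores, built by chalcone synthase, chalcone isomerase and the hydroxylases that follow them. Gene descriptions are given only for the spots that the study itself describes, since the value table holds none, and all others go by their spot name. The identity of the tissue could not be checked against marker genes for that reason.

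The step was broad and mostly small. Of the 7189 spots, 2778 differed between November and September needles of Whorl 0 (38.6%, limma with Benjamini-Hochberg adjusted p under 0.05), of which 1168 were higher in November (16.2%) and 1610 were lower (22.4%). Only 103 spots (1.43%) were called with a difference of at least 1 on the log2 scale, 50 higher and 53 lower. The median absolute difference over all spots was 0.16, the median difference was -0.02, and the values ran from -2.12 to 3.44. Among called spots the 2 directions had different shapes. Of the 900 called spots that differed by less than 0.25, 678 were higher in November, whereas of the 1181 between 0.25 and 0.5 and the 594 between 0.5 and 1, 857 and 478 were lower. At 2 or more the balance turned again, with 11 spots higher and 1 lower. The split depended on the scaling of the arrays: with quantile normalization 1199 spots were higher and 1067 lower (52.9% higher, against 42% of the calls on the values as deposited).

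**Figure D1:**
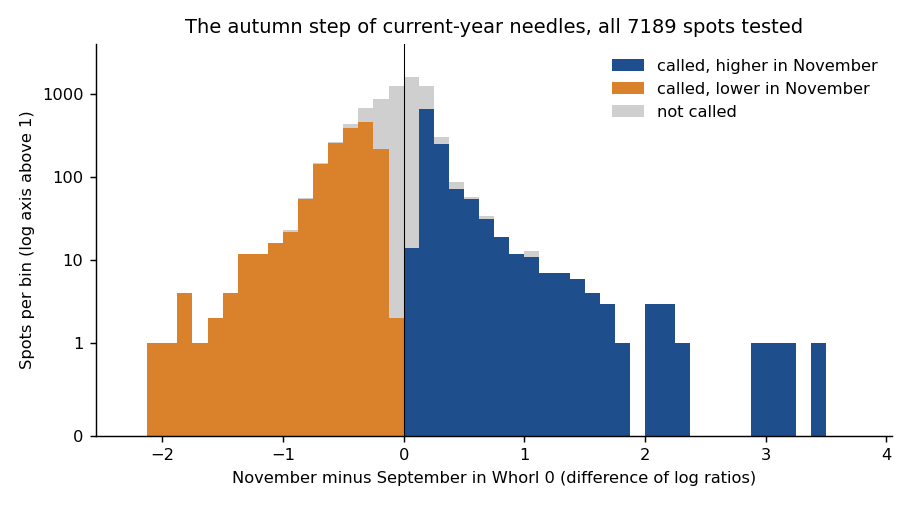
Number of spots (log axis above 1) by November minus September difference of the log ratios in Whorl 0, with called spots in colour. Calls that were higher in November were mostly small with a tail up to 3.44, and calls that were lower were mostly between 0.25 and 1.

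The arrays of the 2 months did not overlap at 3436 spots (47.8%), and 2518 of these were called. The 3 November arrays of Whorl 0 had a mean correlation across spots with the other replicates of 0.706, 0.758 and 0.630, and the 3 September arrays one of 0.844, 0.855 and 0.855. The standard deviation of their difference from the other replicates was 0.180, 0.142 and 0.228 in November and 0.183, 0.153 and 0.153 in September, so that by this measure the third November array stands apart and the other November arrays do not. November arrays spread less around the January pool: the standard deviation of the log ratios over the 5823 spots measured on each of the 65 arrays used was 0.267, 0.264 and 0.292 in November and 0.373, 0.316 and 0.317 in September. The groups do not overlap, and the difference of -0.0611 had an exact two-sided permutation p = 0.1, the smallest that 3 arrays against 3 can give. In group means 328 spots lay more than 0.5 from the January pool in November and 554 in September. Of the 2415 called spots with complete values, 1744 were nearer to 0 in November and 671 were farther from it. The same count was not made over all 5823 spots, so this is no separate result about the called spots.

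Some spots had values in Whorl 0 in November alone or in September alone and could not be given a difference. The reason for a missing value is not given in the sources used here. Whether these transcripts fell below detection was not tested. A value was present on at least 2 November arrays and on none of the September arrays of Whorl 0 at 88 spots, 31 of them on all 3. The reverse held at 60 spots, 16 of them on all 3 September arrays. These are among the 1019 spots that were not members, of which 139 had too few values in November alone, 259 in September alone and 621 in both months.

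The spots that changed most carry no description. Q8C5 had log ratios of -0.81, -0.44 and -0.68 in November and of -4.49, -4.03 and -3.74 in September. It was 10.9-fold higher in November, with a mean of -0.64 there and -4.08 in September (3.44 ± 0.19 on the log2 scale, SE, adjusted p = 4.41e-19). Q7D6 had 1.53, 1.75 and 1.92 in November and -2.02, -1.26 and -1.26 in September, a 9.51-fold rise (3.25 ± 0.19, adjusted p = 9.79e-19) that carried it above the January pool. In the other direction, Q1M2 had -0.64, -1.47 and -0.23 in November and 1.46, 1.20 and 1.36 in September (-2.12 ± 0.32, adjusted p = 1.49e-06). Q5N12 had -1.02, -0.92 and -0.42 in November and 1.33, 0.94 and 1.07 in September (-1.90 ± 0.21, adjusted p = 1.28e-09).

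Of the 43 spots that the study names, 39 could be tested in Whorl 0, and 10 were higher and 12 lower in November, a share above the background of 38.6%. This is no independent result, since the study chose most of these spots on the same arrays for their relation to needle age, temperature or rain. Among them, membrane lipid genes included the strongest rise. Q11J18, a fatty acid or sphingolipid desaturase of the kind that puts double bonds into membrane lipids, had 0.54, 0.36 and 1.04 in November and -0.80, -0.95 and -0.91 in September. All November arrays lay above 0 and all September arrays below it, a 2.9-fold rise (1.53 ± 0.16, adjusted p = 5.73e-10). Q15E22, an aminoalcoholphosphotransferase, an enzyme of the last step of phospholipid synthesis, had 0.10, 0.12 and 0.45 in November and 0.12, 0.12 and 0.02 in September and was not called (adjusted p = 0.23).

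The cold acclimation protein Q12L10 had 0.46, 0.41 and 0.75 in November and 0.15, -0.09 and 0.18 in September. It was 1.38-fold higher in November, with no overlap (0.46 ± 0.09, adjusted p = 0.000116). The endoplasmin precursor Q14J11, a chaperone of the endoplasmic reticulum, had 0.47, 0.66 and 0.67 in November and 0.52, 0.05 and 0.10 in September. It was called (0.38 ± 0.12, adjusted p = 0.0117), although the arrays overlapped. The call was lost with the replicate number as a block (adjusted p = 0.0525) and with only the Whorl 0 arrays in the fit (0.084). It was also lost without the second September array (0.0828) and without the third (0.058). The HSP70 chaperone spot Q17J7 had 0.38, 0.55 and 0.96 in November and 0.83, 0.24 and 0.36 in September and was not called (adjusted p = 0.488).

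Of 5 spots of carbon metabolism and transport 4 were called higher and 1 lower, against 16.2% and 22.4% of all spots. All 5 come from lists that the study chose on these arrays, the hexose transporter from its list for validation. Alcohol dehydrogenase Q17K21, which reduces acetaldehyde to ethanol, had -0.04, 0.17 and 0.40 in November and -0.60, -0.62 and -0.66 in September (0.80 ± 0.13, adjusted p = 5.22e-06). The pair of spots for a mitochondrial dicarboxylate carrier, which exchanges organic acids across the inner mitochondrial membrane, moved together. Q11D3 had 0.39, 0.58 and 0.50 in November and 0.03, -0.45 and -0.14 in September (0.67 ± 0.11). Q12A19 had 0.27, 0.53 and 0.40 in November and 0.00, -0.36 and -0.12 in September (0.56 ± 0.09). Both have the same description, and whether they report the same transcript is not known here. The hexose transporter Q13B15 was higher by 0.41 ± 0.08, and the glycolytic and Calvin cycle enzyme triose-phosphate isomerase Q7G9 was lower by a step of -0.63 ± 0.11, with -0.01, -0.09 and 0.05 in November and 0.54, 0.68 and 0.62 in September.

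The 2 isoprenoid genes went opposite ways. Q19M11, 3-hydroxy-3-methylglutaryl synthase of the mevalonate pathway in the cytosol, had 0.36, 0.31 and 0.70 in November and -0.43, -0.32 and -0.24 in September, a 1.73-fold rise (0.79 ± 0.15, adjusted p = 5.33e-05). Q10C3, geranylgeranyl diphosphate synthase, which makes the precursor of carotenoids, the chlorophyll side chain and diterpenes, had 0.36, 0.79 and 0.88 in November and 1.37, 1.49 and 1.32 in September. It was lower in November with no overlap (-0.72 ± 0.18, adjusted p = 0.00118).

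Auxin-responsive spots and 2 of the 3 spots of protein synthesis fell. Both auxin-responsive spots were among the larger decreases: Q5C1 had -0.48, -0.72 and -1.15 in November and 0.65, 0.30 and 0.51 in September (-1.27 ± 0.18, adjusted p = 2.78e-07). Q1J15 had -0.75, -0.72 and -0.61 in November and 0.69, 0.22 and 0.38 in September (-1.12 ± 0.11, adjusted p = 1.94e-11). In both, every September array was above 0 and every November array below it. Elongation factor 1-alpha, which brings aminoacyl-tRNA to the ribosome, fell most of the described spots: Q11E4 had -0.31, -0.16 and -0.36 in November and 1.30, 0.93 and 0.90 in September, 2.49-fold more in September (-1.31 ± 0.16, adjusted p = 1.61e-08). The RNA helicase initiation factor 4A (Q2A8) was lower by a step of -0.58 ± 0.12, while the 40S ribosomal protein Q17O7 had 1.02, 1.53 and 1.54 in November and 1.13, 1.54 and 1.64 in September and was not called.

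Cell wall genes were also lower: UDP-arabinose mutase Q6B3, which supplies arabinofuranose for wall polymers, with a step of -0.50 ± 0.11, and the pectin methylesterase-like spot Q17N23 with one of -0.49 ± 0.09. So were ketol-acid reductoisomerase Q17J10 of branched-chain amino acid synthesis (-0.57 ± 0.09), clathrin light chain Q22K3 of vesicle coats (-0.46 ± 0.11), the exonuclease domain protein Q16E20 (-0.41 ± 0.08) and the unknown protein Q1K1 (-0.80 ± 0.14). The undescribed spots Q3A4 and Q2I24 were higher, by 0.26 ± 0.06 and 0.40 ± 0.10. Without the third November array Q2I24 lost its call (adjusted p = 0.0518), and with quantile normalization Q22K3 lost its own (step -0.20, adjusted p = 0.149). The 3 MYB factors did not pass the test, with steps of 0.23 for Myb5 (Q7N23), -0.16 for Q11F13 and -0.06 for Q16P17, and neither did methylenetetrahydrofolate dehydrogenase (Q10D23, -0.04), serine hydroxymethyltransferase (Q1E13, -0.15) or the aspartic proteinase Q16J12 (-0.05). The spots Q7F2, Q11C18, Q13C16 and Q14O21 had too few values to be tested. For Q7F2 these were 0.04, 0.05 and -0.05 in November and -0.09 on the only September array with a value.

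**Figure D2:**
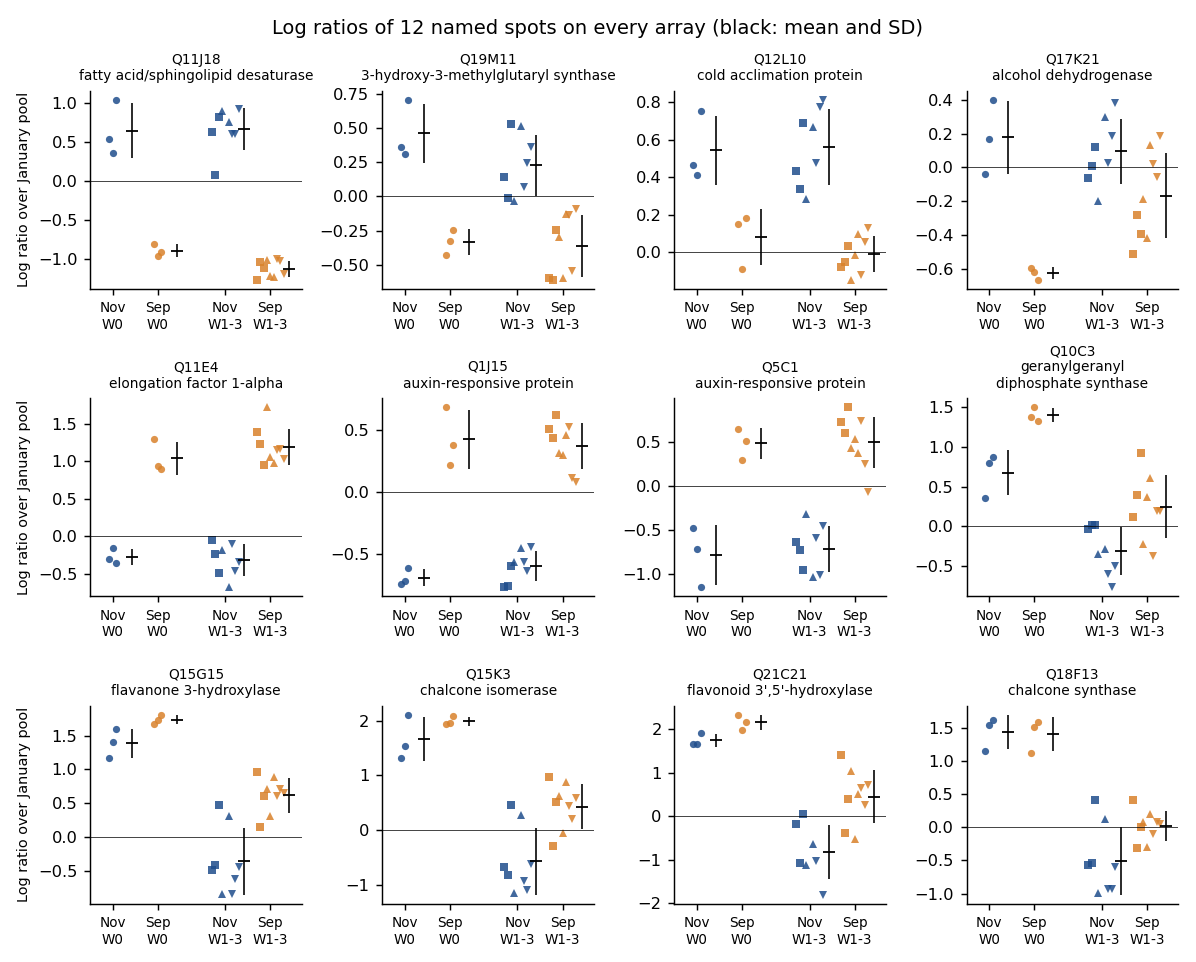
Log ratio over the January pool on every array for 12 named spots. Circles are the 3 arrays of Whorl 0, squares, upward and downward triangles are Whorls 1, 2 and 3, November is blue and September orange, and black marks give the mean and SD over arrays. In the desaturase, elongation factor and auxin-responsive panels November and September separate in Whorl 0 and in older needles alike, whereas in the 4 flavonoid panels of the bottom row Whorl 0 stays above 1 in both months.

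The older needles took nearly the same step. The steps of the 2 ages share no array, but they share trees, harvests and the January pool. Over the 7017 spots tested in both, the Whorl 0 step and the mean step of Whorls 1 to 3 had a correlation across spots of 0.854, with the same sign at 85.4% of the spots, where most differences are small (spots are not independent, and no p is given). Whorl 0 was most like Whorl 1 (0.873), then Whorl 3 (0.825) and Whorl 2 (0.807, with 2 November arrays). The older whorls were more like each other, with correlations from 0.922 to 0.938. Spots called in Whorl 0 were for the most part also called in older needles: of 2727 and 4199 calls, 2387 were shared, 87.5% of the Whorl 0 calls and 56.8% of the older calls. Of the shared calls, 2367 had the same direction (1040 higher and 1327 lower in November) and 20 had opposite directions. The larger number of calls in older needles, 4238 of 7100 (59.7%; 28.1% higher and 31.6% lower), was made on more arrays, and the overlap shares rest on it. With the arrays of each older pool averaged first it was 2250, below the 2778 of Whorl 0, and 61.2% of the Whorl 0 calls and 74.8% of the older calls were then shared. Single whorls, with as many arrays or nearly so, gave 2279 of 7430 spots in Whorl 1 (30.7%; 12.8% higher and 17.9% lower), 1906 of 7212 in Whorl 2 (26.4%; 11.0% and 15.5%) and 2458 of 7210 in Whorl 3 (34.1%; 14.7% and 19.4%), each total below the 38.6% of Whorl 0. The counts were not tested against each other.

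In size, the step of the youngest needles was the largest of the 4 by a small margin that was not tested. The standard deviation over the 7017 spots was 0.321 in Whorl 0, 0.295 in Whorl 1, 0.307 in Whorl 2 and 0.310 in Whorl 3, and 0.301, 0.273, 0.281 and 0.290 once the error of the fit was taken off. Absolute differences over 0.5 were found at 695 spots in Whorl 0, 531 in Whorl 1, 572 in Whorl 2 and 608 in Whorl 3. Large changes in Whorl 0 went the same way in older needles, and most but not all were large there too. All 96 spots called with a difference of at least 1 in Whorl 0 and tested in older needles had the same sign there. Of these, 92 were called in older needles, 62 of them with a difference of at least 1. The older step was a median of 0.904 times that of Whorl 0 (quartiles 0.725 and 1.04). Chosen the other way round, the 79 spots with such a step in older needles all had the same sign in Whorl 0. There 76 were called, 62 of them with a difference of at least 1, and the median ratio was 0.954 (quartiles 0.836 and 1.07). For the leading spots the older step was 2.70 for Q8C5, 3.19 for Q7D6 and -1.98 for Q5N12, against 3.44, 3.25 and -1.90 in Whorl 0. Among the largest of the older step, Q9A18 (2.93) and Q2J21 (-1.98) had Whorl 0 steps of 2.90 and -1.81.

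**Figure D3:**
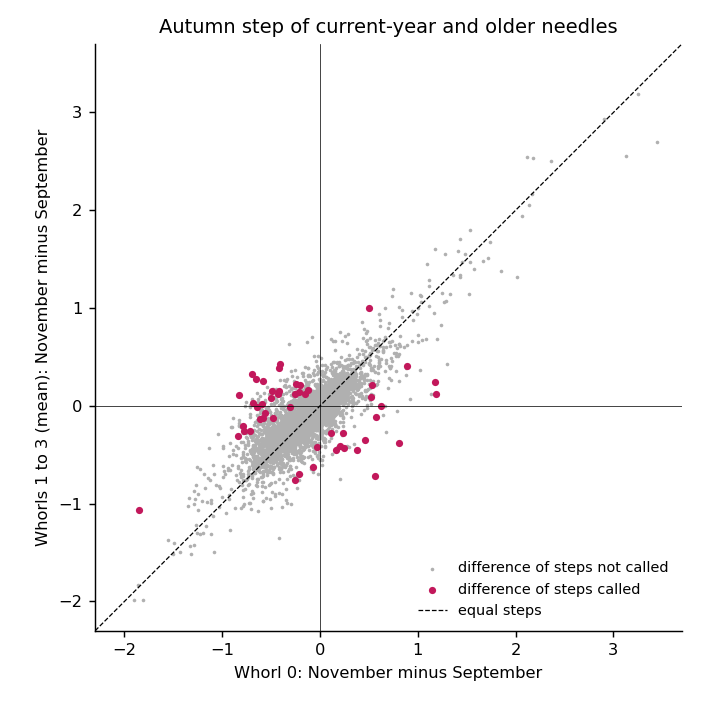
November minus September in Whorl 0 (horizontal) against the mean of Whorls 1 to 3 (vertical) for 7017 spots, both as differences of log ratios, with the dashed line at equal steps. Most spots lie along the line (correlation across spots 0.854), and the 50 spots at which the steps differed by the test are in colour.

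The difference between the steps, tested directly as the Whorl 0 step minus the older step, passed at 50 of 7017 spots (0.713%), 20 higher (0.285%) and 30 lower (0.428%) in Whorl 0, of which 4 (0.0570%) differed by at least 1, while 633 had an unadjusted p under 0.05. The replicate number as a block for the pool of trees was fitted on the September and November arrays alone. There the count was 100 with the block and 19 without it. In simulated data with the spread of these arrays the test found 71% of spots whose steps differed by 0.5 and 98% of those that differed by 1, with 9 false calls. The simulated arrays were independent of each other, whereas real arrays of a pool share trees. These shares therefore need not hold for the real data. The called differences had an absolute size of 0.279 to 1.28 with a median of 0.565. At 29 of the 50 spots the fitted steps had opposite signs, at 16 they had the same sign and were larger in Whorl 0, and at 5 they were smaller in Whorl 0. The count rested on the fit and on single arrays. With the older arrays of each pool averaged first it was 0 (limma, 384 spots at an unadjusted p under 0.05), and with the gap between the ages taken within each pool and month, an alternative added after the values were seen, it was 58. It was 13 without the first September array of Whorl 0, 27 without the second November array, 76 without the third November array and 113 without the first pool of older needles.

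The 4 leading spots of this difference have no description. Q19H23 had -0.65, -0.34 and 0.37 in November and -0.87, -0.68 and -0.76 in September needles of Whorl 0. In older needles it had a median of -0.72 (-1.14 to 0.34) in November and of 0.05 (-0.59 to 0.80) in September. The fitted steps were 0.57 in Whorl 0, which was not called (adjusted p = 0.0551), and -0.72 in older needles, which was called (difference of steps 1.28 ± 0.28, adjusted p = 0.0114). Q17C4 went the same way, with 1.23, 1.37 and 1.97 in November and 0.30, 0.77 and 1.07 in September in Whorl 0, against medians of -0.59 (-1.16 to 0.42) and -0.19 (-0.80 to 0.40) in older needles (1.19 ± 0.26, adjusted p = 0.0123). Its steps in Whorls 1, 2 and 3 were 0.30, -0.50 and -0.95, and the difference was 0.51 against Whorl 1 alone (adjusted p = 1). Q8J22 went the other way. It had -0.90, -0.76 and -0.78 in November and -0.40, 0.16 and -0.13 in September in Whorl 0, and medians of -0.17 (-0.31 to 0.37) and -0.52 (-0.64 to 0.07) in the older needles (-1.02 ± 0.21, adjusted p = 0.0089). Q18A22 had -0.34, -1.66 and -0.42 in November and -0.21, 0.38 and -0.09 in September, where the second November array stands far below the others. Its difference of -0.94 ± 0.22 (adjusted p = 0.0225) became -0.51 without that array (adjusted p = 0.323) and lost its call with the replicate block (adjusted p = 0.128). The other 3 calls also rest on the fit and on single arrays. With pool means the adjusted p was 0.549 for Q19H23, 0.549 for Q17C4 and 0.455 for Q8J22, and with the gap within each pool it was 0.042 for each of them. Without the third November array of Whorl 0 the adjusted p was 0.0753 for Q19H23 and 0.0703 for Q17C4, without the first September array it was 0.0625 and 0.116, and without the second September array that of Q8J22 was 0.058.

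**Figure D4:**
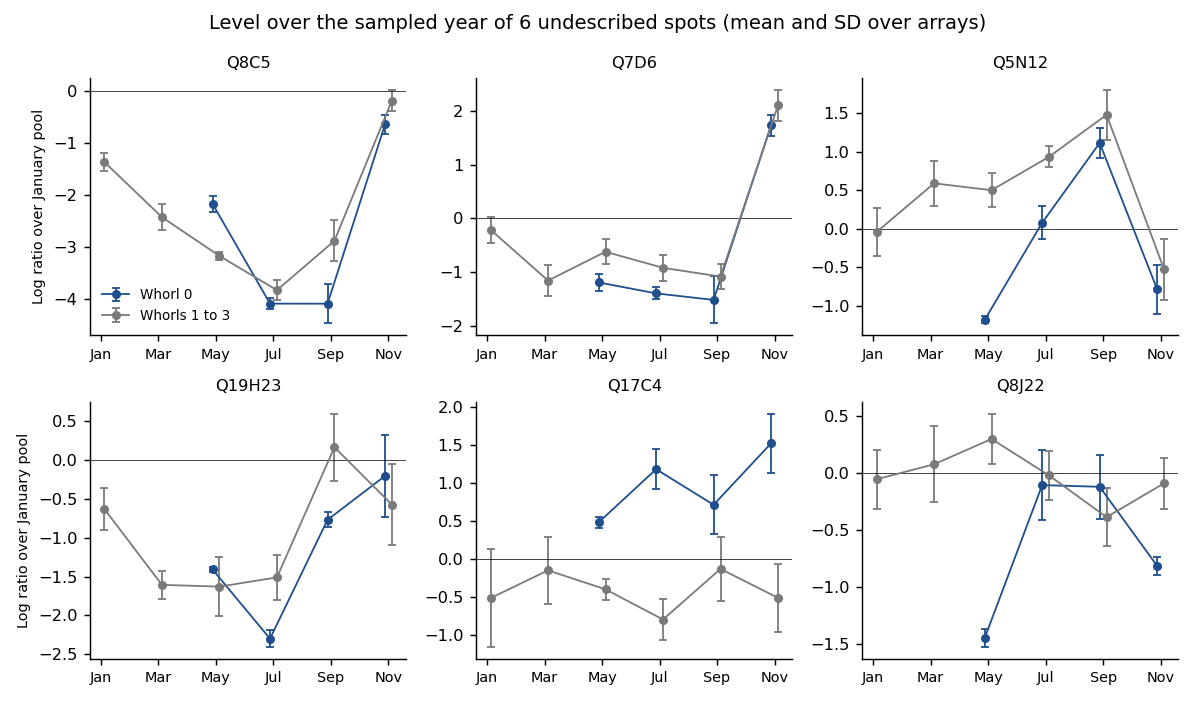
Mean log ratio over the January pool (error bars: SD over arrays) from January to November in Whorl 0 (blue, sampled from May on) and in Whorls 1 to 3 (grey) for 6 undescribed spots. Q8C5, Q7D6 and Q5N12 take an autumn step in the same direction at both ages, while the means of Q19H23, Q17C4 and Q8J22 move in opposite directions between September and November, although the Whorl 0 step of Q19H23 was not called and Whorl 1 alone had a step of 0.30 for Q17C4, of the same sign as Whorl 0.

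None of the 38 described or study-named spots tested in both steps passed the test of the difference (limma, adjusted p under 0.05), against 0.713% of all spots. At an unadjusted p (limma) under 0.05 there were 12 of the 38, against 633 of all 7017 spots. The nearest were alcohol dehydrogenase Q17K21 and the clathrin light chain Q22K3. Q17K21 had a step of 0.80 in Whorl 0 and 0.26 in older needles (difference 0.55 ± 0.15, adjusted p = 0.0721). Its difference was called in 6 of 22 alternative settings of the limma fit. Among these the adjusted p was 0.0347 with the replicate block, 0.0144 with a random block of pool and 0.0344 with quantile normalization. Its September level was lower in Whorl 0 (-0.60 to -0.66) than on any September array of the older needles (-0.51 to 0.19), while the November ranges overlapped. Q22K3 had a step of -0.46 in Whorl 0 and -0.90 in older needles (difference 0.45 ± 0.13, adjusted p = 0.0902, and 0.0384 with the replicate block, 0.0149 with a random block of pool and 0.00202 with quantile normalization). Quantile normalization also called the difference at Q6B3 (adjusted p = 0.0276).

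The study's 10 spots related to Temperature had the same counts in each whorl, with 1 higher and 9 lower in Whorl 0 and in each of Whorls 1, 2 and 3, and medians of -0.53 in Whorl 0 and -0.56 in older needles. The difference of steps had an unadjusted p (limma) under 0.05 at 3 of the 10, Q22K3 among them, against 633 of all 7017 spots. Of its 10 spots related to Rain, 7 were higher and 1 lower in Whorl 0, with a median of 0.48, against 7 higher and 1 lower with a median of 0.30 in older needles. Those called higher were 4, 5 and 5 in Whorls 1, 2 and 3 alone, 5 in Whorl 0 with only its own arrays in the fit, and 5 in older needles with pool means. Over all spots the medians were -0.02 and -0.01. Of all spots 16.2% were called higher and 22.4% lower in Whorl 0, and 28.1% and 31.6% in older needles. In Whorls 1, 2 and 3 alone 12.8%, 11.0% and 14.7% were called higher and 17.9%, 15.5% and 19.4% lower. Both months and both variables enter the relations to Temperature and Rain on the same arrays. The counts of these lists are therefore descriptions and no independent evidence of their direction.

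The 10 spots that the study relates to Whorl, that is to needle age, stood apart in their values. The study chose them on these same arrays for values that fall with needle age. Their levels and steps by age are therefore descriptions of the list and no independent evidence. Only Q10C3 was called in Whorl 0 (median step of the list -0.16), while 9 of 10 were called lower in older needles (median -0.58), where 31.6% of all spots were. With pool means 7 of 10 were, and Q17L11 and Q18F13 lost their calls (adjusted p = 0.0586 and 0.0693). The fitted step was larger in older whorls, with 4 spots called lower in Whorl 1, 5 in Whorl 2 and 10 in Whorl 3, and medians of -0.44, -0.56 and -0.84. Of all spots 22.4% were called lower in Whorl 0 and 17.9%, 15.5% and 19.4% in Whorls 1, 2 and 3. The difference of steps was above 0 at 9 of the 10 spots, with a median of 0.54, but passed the test at none of them, so the gradient is a description. Its unadjusted p (limma) was under 0.05 at 8 of the 10, against 633 of all 7017 spots. That median was 0.307 against Whorl 1 alone. Without the first pool of older needles it was 0.227, on 9 spots that did not include Q21C21. Without the third pool it was 0.779, and 3 of 9 spots passed. Quantile normalization moved the median Whorl 0 step of the list to 0.04 and left the older median at -0.57.

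Of that list, 5 spots are enzymes of flavonoid synthesis. Flavanone 3-hydroxylase Q15G15, which leads from flavanones to dihydroflavonols, had 1.17, 1.40 and 1.60 in November and 1.67, 1.73 and 1.81 in September needles of Whorl 0, a step of -0.35 ± 0.21 that was not called (adjusted p = 0.18). In older needles it had a median of -0.46 (-0.85 to 0.47) in November and 0.65 (0.14 to 0.96) in September, a step of -0.97 ± 0.12 (adjusted p = 7.58e-09). Young needles thus lay above every older needle array in both months, a gap that the choice of this list by needle age favours. Chalcone isomerase Q15K3 had 1.33, 1.55 and 2.11 in November and 1.94, 1.96 and 2.09 in September in Whorl 0 (step -0.34 ± 0.27), and a step of -0.99 ± 0.16 in older needles. Flavonoid 3',5'-hydroxylase Q21C21, which adds hydroxyl groups to the B ring, had 1.66, 1.65 and 1.91 in November and 2.33, 1.99 and 2.16 in September. Its arrays did not overlap in Whorl 0, yet the step of -0.42 ± 0.36 was not called (adjusted p = 0.372, and 0.0426 with only the arrays of Whorl 0 in the fit), against -1.35 ± 0.22 in older needles, where 7 November arrays had a value.

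Chalcone synthase, the enzyme of entry to the pathway, is represented by Q15M17 and Q18F13. Q18F13 had 1.15, 1.55 and 1.62 in November and 1.12, 1.52 and 1.59 in September in Whorl 0, almost the same value pool by pool, while the older needles took a step of -0.51 ± 0.13 (adjusted p = 0.000776). Q15M17 had 0.89, 1.25 and 1.41 in November and 0.99, 1.10 and 1.04 in September, with a step of 0.14 ± 0.16, and one of -0.16 ± 0.09 in older needles. Neither age was called for Q15M17. In all, 0 of 5 flavonoid spots were called in Whorl 0, 2 in Whorl 1, 3 in Whorl 2 and 5 in Whorl 3, all lower (of all spots 22.4%, 17.9%, 15.5% and 19.4% were lower), with median steps of -0.34, -0.71, -0.90 and -1.29. The differences of steps at these 5 spots ran from 0.30 to 0.93, all above 0 and none called. The unadjusted p (limma) was under 0.05 at 4 of them, against 633 of all 7017 spots.

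Apart from Q10C3, with steps of -0.72 in Whorl 0 and -0.55 in older needles, the remaining spots of the list had the larger step in older needles. The armadillo repeat protein Q17L11 had steps of 0.17 in Whorl 0 and -0.42 in older needles, the COP9 complex gene Q13K2, of a complex that regulates protein breakdown in light signalling, -0.04 and -0.41, the protein-binding protein Q16H14 -0.25 and -0.62, and the ribosomal protein Q17O7 -0.07 and -0.61. The values of the Whorl list differed by pool as well. In November the third pool had the highest value in Whorl 0 at 9 of the 10 spots and the first pool the lowest at 8. In September these counts were 7 and 7. For the Rain list they were 7 and 7 in November and 1 and 1 in September, and for the Temperature list 6 and 4, and 1 and 4. The means over spots of the 3 November arrays rose in the same order (-0.0267, -0.0124 and 0.016). Without the first pool of older needles the older step of the Whorl list had 5 of 9 spots called and a median of -0.34. Q17L11, Q18F13 and Q13K2 lost their calls there (adjusted p = 0.148, 0.259 and 0.0557). The part of the pools in the pattern was not tested.

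**Figure D5:**
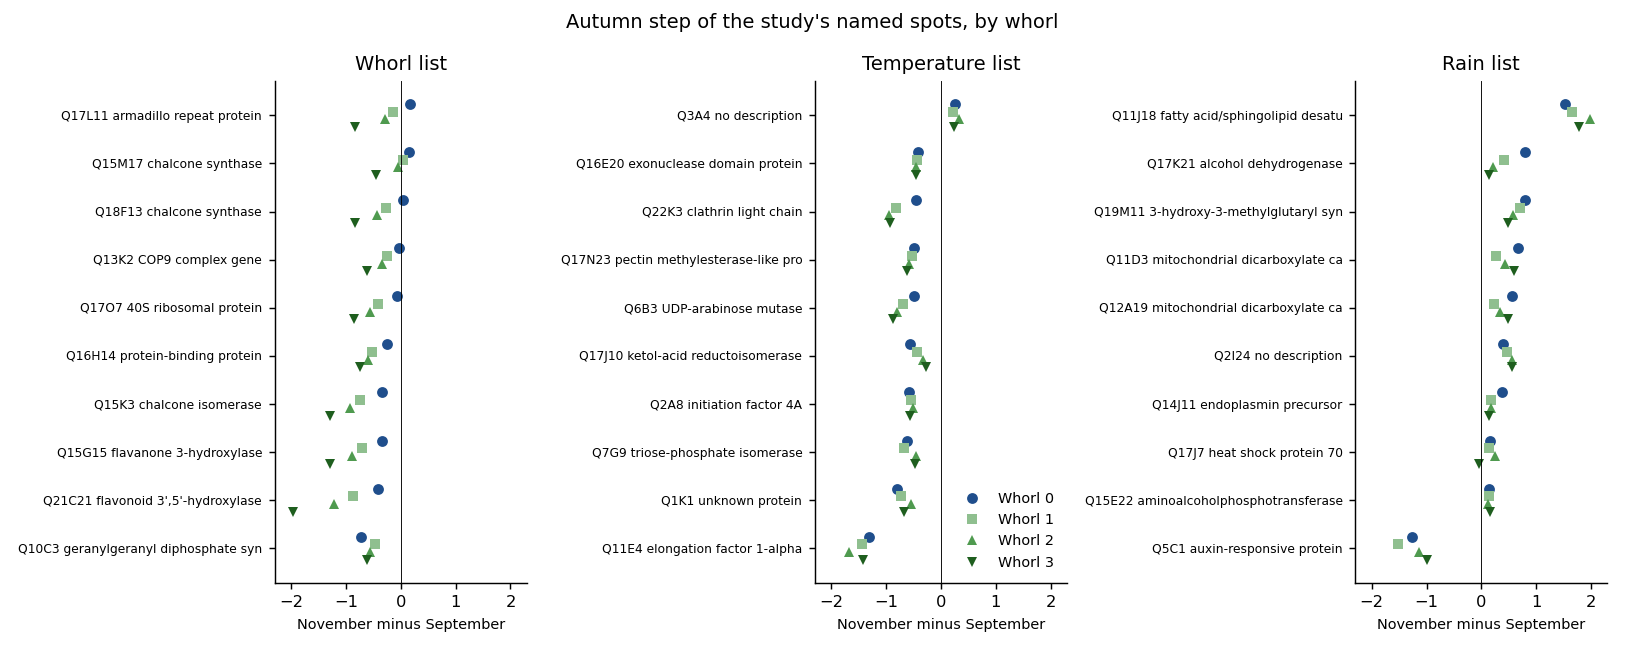
November minus September difference of the log ratios by whorl for the 10 spots of each of the study's Whorl, Temperature and Rain lists. In the Whorl list the points move left with needle age, with median steps of -0.16, -0.44, -0.56 and -0.84 in Whorls 0 to 3. In the Temperature list 1 spot was called higher and 9 were called lower in each whorl. Of all spots 22.4%, 17.9%, 15.5% and 19.4% were called lower in Whorls 0 to 3.

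The step was followed by replicate number, with the same number taken as the same pool of trees. The correlation across 5823 spots between the step of Whorl 0 and that of older needles was 0.838, 0.741 and 0.835 for pools with the same number and 0.538 to 0.766 for pools with different numbers, and each pool of Whorl 0 was most like its own number. The median absolute step of the 3 pools was 0.215, 0.171 and 0.163 in Whorl 0 and 0.147, 0.147 and 0.180 in older needles. The first pool thus had the larger step in Whorl 0 and the third had the larger one in older needles, so the order of the ages by size was not the same in all pools. Each older value averages 5 or 6 arrays and each Whorl 0 value rests on fewer, so the sizes of the 2 ages are not on equal terms.

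Judged by the whole profile, current-year needles in November were nearer to older needles of the same month than to themselves in September. The root mean square difference over 5823 spots between group means was 0.166 from November Whorl 0 to November Whorl 1, 0.211 to Whorl 2 and 0.214 to Whorl 3. It was 0.272 to 0.295 to the January needles of Whorls 1 to 3 and 0.326 to September Whorl 0. September Whorl 0 was likewise nearest to the September needles of Whorls 1, 2 and 3 (0.193, 0.195 and 0.210), and then to July Whorl 0 (0.282). Groups of the same month share a harvest, so month and harvest cannot be told apart.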

How the data were processed

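The deposited values are log2 ratios of the needle sample (Cy3) over a January pool (Cy5) on the PINARRAY2 cDNA array, which the authors scanned with a GenePix scanner, preprocessed and normalized with BABAR. The log base is not stated and was taken as 2, and no filter or background correction is given in the sources used here. Depth has no meaning for these arrays, and their number limits the precision. The arrays of Whorl 0 had values at 7375, 7487 and 7421 spots in November and at 7017, 7436 and 7324 in September.

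Group means of month and whorl (22 groups, 65 arrays) were fitted with limma 3.58.1 in R 4.3.3, with moderated variances and Benjamini-Hochberg adjustment over all spots tested. Replicate 2 of November Whorl 2, which the authors dropped as an outlier from their network, did not enter, so that group has 2 arrays. Older needles are the mean step of Whorls 1 to 3 at spots with at least 2 arrays in each of the 6 groups. Arrays of 1 pool in different whorls come from the same trees, and harvests are repeated on the same trees, so p-values do not describe other trees or years.

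A figure caption of the paper ties a replicate number to an individual, while its methods pool the RNA of several trees. The same number was taken to mean the same pool of trees, which the paper does not state. Deviations from the group means correlated by 0.038, 0.144 and -0.13 between November and September arrays of Whorl 0 with the same number (over 0.1 at 6 of 11 pairs in all whorls). Between Whorl 0 and each of Whorls 1 to 3 of the same month and number they correlated by a mean of 0.607, 0.203 and 0.666 in November and by 0.517, 0.296 and 0.229 in September.

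In simulated data for the Whorl 0 step (7189 spots), 77% of spots changed by 0.5 and 100% of those changed by 1 were found, with 4 false calls. All simulated arrays were independent, without the sharing of trees by the real arrays. Descriptions used Python 3.11.15. Alternatives were quantile normalization, stricter filters, all 66 arrays, fixed and random blocks, pool means, the arrays compared alone, a trended robust prior and single arrays or pools left out. The fixed block of replicate number was fitted on the September and November arrays alone, so its results differ from the main fit in the arrays as well.

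The spots named are the 43 that the study names and, for each of the Whorl 0 step, the older step and their difference, the pair of called spots with the largest difference in each direction whose arrays (for the difference, whose Whorl 0 step against those of the older whorls) do not overlap. The members and the gene lists were chosen with earlier results of these data known. No sequences or annotation of the spots were used here.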

Additional observations from a re-analysis of the deposited data

Results flagged for a closer look

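The step from September to November differed between Whorl 0 and older needles, by the test of the difference itself, at 50 of 7017 spots (0.713%). The 2 spots with the largest differences in each direction were Q19H23 with 1.282 and Q17C4 with 1.193, and Q8J22 with -1.017 and Q18A22 with -0.939 on the log2 scale. In no alternative did any of them change sign. With the gap between Whorl 0 and older needles taken within each pool and month, an alternative chosen after the values were seen, 58 spots were called, of which 21 were among the 50.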

How the results depend on the processing

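The Whorl 0 step kept its count of 2778 spots within 1.5 times with quantile normalization (2266), stricter filters, all 66 arrays, both blocks and the trended prior; it was 1592 with the 6 arrays compared alone (520 higher, 1072 lower), 103 with a difference of at least 1 and 1959 to 2544 with 1 array left out. The older step was called at 4238 spots, 2250 with pool means, 80 with a difference of at least 1 and 3216 to 3740 with 1 pool left out. The difference of steps, with 50 calls, moved most. The count was 112 with quantile normalization (37 of them shared with the 50) and 164 with pool within month as a random block (50 shared). On the arrays of these months alone it was 19 without a block and 100 with the replicate block (40 shared). It was 4 with a difference of at least 1, and 0 with pool means (limma, 384 at an unadjusted p under 0.05). It ranged from 13 to 113 with 1 array or pool left out. With 1 older whorl alone in place of the mean, chosen after the values were seen, 3 spots differed from Whorl 1, 8 from Whorl 2 and 18 from Whorl 3. The cause of these changes was not tested. Some settings also bring fewer arrays or an added size limit.

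No named spot changed sign with a call in any alternative. In 680 refits of the Whorl 0 step 11 lost and 3 gained a call, in 553 of the older step 19 and 6, and in 1021 of the difference 29 and 15. The replicate block changed no call of the named spots other than those given above and the older call of the aminoalcoholphosphotransferase Q15E22, which it ended.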
